A study of Mus musculus with 9 samples.

Results

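The GDNF family of neurotrophic signalling genes was taken as 9 genes, chosen by their annotated symbols: the ligand genes Artn, Gdnf, Nrtn and Pspn, the co-receptor genes Gfra1, Gfra2, Gfra3 and Gfra4, and the receptor gene Ret. All 9 were measured, by 9 features among 16504 named genes on the 6 arrays against untransfected cells and by 12 features among 19087 named genes on the 3 arrays against empty vector. The set was drawn up around Artn because its ratios were already known to be among the lowest with full-length CCAT, so the values of Artn are a description and carry no test.

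GDNF family ligands are small secreted proteins that act as dimers. Each binds preferentially to its own co-receptor, a protein held at the cell surface by a lipid anchor: GDNF to the product of Gfra1, neurturin to that of Gfra2, artemin to that of Gfra3 and persephin to that of Gfra4. The pair then brings together molecules of the tyrosine kinase RET, which signals to the RAS, PI3 kinase and phospholipase C pathways. In the developing sympathetic nervous system, the lineage from which neuroblastoma arises, artemin acts on migrating neuroblasts and their growing axons.

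Neuro2A is a mouse neuroblastoma line grown in culture. CCAT is a C-terminal fragment of the calcium channel CaV1.2, and it was studied for the genes it regulates as a transcription factor. FL cells had received, by lipid transfection, PA1 plasmid that encoded the final 503 channel residues, and DTA cells (also written DTS in the labels) PA1 that encoded the final 280, a form described as lacking the activation domain. RNA was taken 24 hours after transfection from cells sorted for GFP fluorescence, so the values describe transiently transfected cells and not a stable line. On 3 arrays FL was set against untransfected, sorted cells and on 3 arrays DTA was. On another 3 arrays, of a second platform, FL was set against sorted cells that had received empty PA1. The labels also state that DTA could still activate transcription, though far less than FL.

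Values are log2 ratios of the 2 channels of an array, read here so that positive means more RNA in the CCAT channel. That order is likely, not stated: by the design text some genes rose with plasmid alone, and 5 interferon-induced genes (Cxcl10, Isg15, Ifit1, Mx2 and Irf7) had a median ratio of 3.78 with FL and 2.85 with DTA over untransfected cells but of 0.26 over empty vector. With the opposite order all directions would turn together. Cy3 always marked the CCAT RNA and Cy5 the control RNA, so within a group a gene-specific dye effect and the effect of the construct cannot be told apart. Ratios carry no level, so whether a gene or a neuroblast marker was expressed at all was not tested. The treatment text of DTA replicate 3 names the full-length construct, against its title, and, for the empty-vector arrays, replicate 1 has a control text that disagrees with its dye field. Without DTA replicate 3 the mean of Artn with DTA was -1.34, and without that empty-vector array it was -1.17. Over all named genes, DTA replicate 3 correlated (Pearson) at 0.92 and 0.95 with DTA replicates 1 and 2. With FL replicates 1, 2 and 3 against untransfected cells it correlated at 0.79, 0.76 and 0.73. Nothing in the labels ties replicates to separate cultures, so the p-values cover array-to-array spread, which may be technical, and 3 arrays a group limit the precision of every value.

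Artn, the gene of artemin, had by far the most negative ratios of the family. The log2 ratios of FL over untransfected cells were -1.51, -1.43 and -1.65 on the 3 arrays (mean -1.53, SD 0.11, n = 3), a level 2.89-fold lower. With DTA they were -1.34, -1.34 and -1.48 (mean -1.39, SD 0.081, n = 3), 2.61-fold lower. Against empty vector they were -1.27, -1.21 and -1.12 (mean -1.20, SD 0.073, n = 3), 2.30-fold lower. All 9 arrays were thus below -1. FL and DTA values overlapped, and their means differed by -0.15, which is small beside the ratio of either construct. Artn was measured by a single feature on each platform, both annotated to the same transcript.

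**Figure D1:**
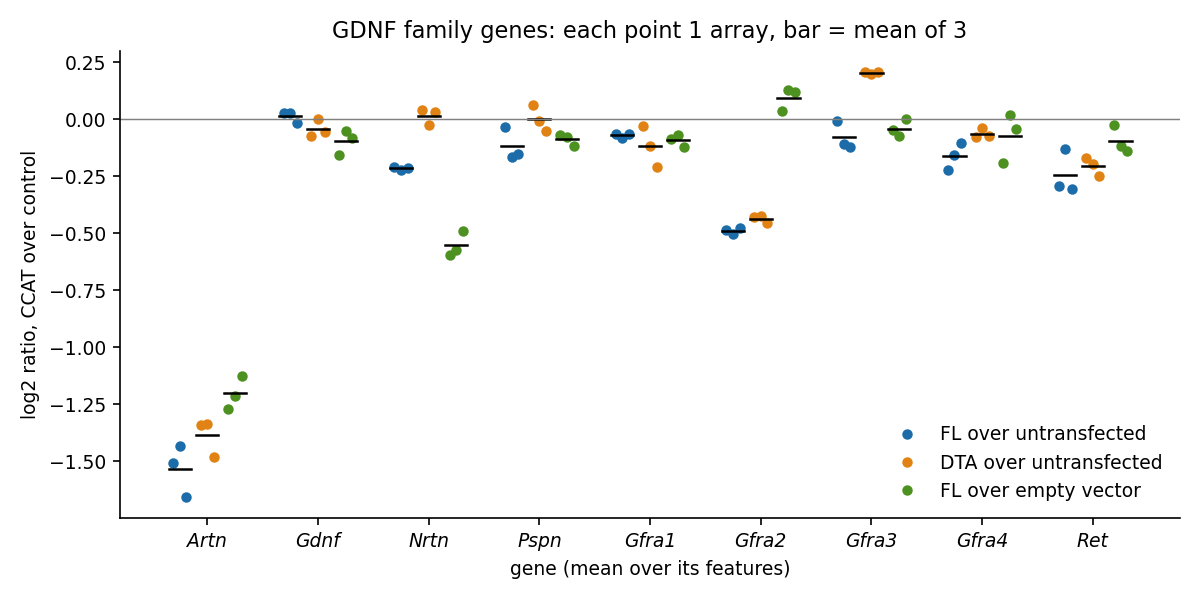
Log2 ratio of the CCAT channel over the control channel (vertical axis) for each of the 9 genes, with 1 point per array and a bar at the mean of 3 arrays, by group (colours). Artn lies between -1.65 and -1.12 on all 9 arrays, Gfra2 is low against untransfected cells (-0.49 and -0.43) but not against empty vector (0.095), and Nrtn is lowest against empty vector.

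Artn ranked 8 from the lowest of 16504 genes with FL against untransfected cells, 20 with DTA, and 14 of 19087 against empty vector. Of 16328 genes on both platforms, Artn was the 1 gene with a ratio at or under -1 on all 9 arrays. The means of 3 genes (Amh, Artn and Styk1) were at or under -1 in all 3 groups, and that of 1 gene (Vmn1r219, a vomeronasal receptor) was at or over 1. These genes were named after their values were seen.

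Over the log2 ratios of all 9 arrays, the 5 genes nearest to Artn by Euclidean distance, clone and gene model names left out, were Amh (distance 0.94), Inhbc (0.97), Sox3 (1.03), Chil1 (1.27) and Pinlyp (1.32). Amh, the gene of anti-Muellerian hormone, had mean ratios over untransfected cells of -1.14 with FL and -1.08 with DTA, and of -1.30 over empty vector. Inhbc, an inhibin beta subunit gene, had -1.33, -1.13 and -0.76 in the same order. Sox3, a transcription factor gene of neural progenitors, had -1.18, -1.19 and -0.99. Chil1, a chitinase-like protein gene, was nearer to 0 against empty vector (-0.57) than against untransfected cells (-1.44 and -1.50). The likeness describes these 9 arrays, which share dye order and, within a platform, the kind of control.

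The 250 bases before and 50 after the annotated start of Artn and of Nrtn are shown because these were the ligand genes with the lowest ratios against empty vector, a choice made after their values were seen. Both windows come from RefSeq on build GRCm38.p6, are written 5′ to 3′ on the minus strand, and lie at chr4:117929714-117930013 and chr17:56757499-56757798. Capitals mark matches of the GC box GGGCGG on either strand.
Artn: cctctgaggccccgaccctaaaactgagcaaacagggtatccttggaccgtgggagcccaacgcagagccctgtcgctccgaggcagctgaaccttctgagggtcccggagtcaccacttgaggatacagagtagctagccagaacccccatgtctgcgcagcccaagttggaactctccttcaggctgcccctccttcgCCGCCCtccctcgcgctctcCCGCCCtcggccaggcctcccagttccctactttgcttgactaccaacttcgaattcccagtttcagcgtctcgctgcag
Nrtn: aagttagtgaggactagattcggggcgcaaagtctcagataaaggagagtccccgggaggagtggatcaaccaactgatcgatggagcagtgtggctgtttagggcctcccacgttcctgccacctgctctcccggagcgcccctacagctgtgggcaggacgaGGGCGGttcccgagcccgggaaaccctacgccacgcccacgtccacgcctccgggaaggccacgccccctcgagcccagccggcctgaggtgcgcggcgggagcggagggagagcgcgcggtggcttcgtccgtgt
The Artn window held 2 GC boxes, starting at bases 201 and 221 of 300 counted from 1 at its 5′ end, both as the reverse complement CCGCCC. The Nrtn window held 1, as GGGCGG at base 165. A GC box was present in 35.7% of all 32851 promoter windows of this length. Neither window held the CRE half-site TGACG (20.8% of windows), the E-box CACGTG (7.15%) or the TATA box TATAAA (13.6%), searched on both strands. Of the other family genes searched (Gdnf, Pspn, Gfra1 and Gfra4), Gdnf held a TATA box and a CRE half-site in 1 of its windows, and Gfra4 a CRE half-site in 1. Gfra2, Gfra3 and Ret were not searched. Guanine and cytosine made up 61.3% of the Artn window and 66.7% of the Nrtn window, against a median of 52.7% over all windows. A match of letters is a description and not a binding site.

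The 8 other members changed far less, and no member other than Artn passed the 1.5-fold mark in any comparison. With FL against untransfected cells, 6 of the 8 fell and 0 rose by limma's test at an adjusted p of 0.05, where 35.1% of all genes fell and 34.7% rose (69.8% called). The median log2 ratio of the 8 was -0.14, against -0.0019 over all genes. The median size of their ratios, 0.14, was below that of all genes (0.20). With DTA against untransfected cells 3 fell and 1 rose (36.1% and 35.7% of all genes, 71.8% called), and the median was -0.052, against -0.0061. Against empty vector 4 fell and 1 rose (32.8% and 30.6% of all genes, 63.4% called), with a median of -0.089, against -0.0048. Most genes were called in each of these groups, so a call by itself does not set a member apart. The shares of all genes that were called and at least 1.5-fold changed were 8.47%, 10.7% and 2.13%.

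Among the ligands, Nrtn, the gene of neurturin, separated the constructs. The ratios with FL against untransfected cells were -0.21, -0.22 and -0.21 (mean -0.21, SD 0.0060, n = 3; limma adjusted p = 0.000290). With DTA they were 0.042, -0.024 and 0.032, on both sides of 0 (mean 0.016, 95% interval -0.036 to 0.069, limma adjusted p = 0.517). FL and DTA values did not overlap, and FL was lower by a log2 difference of -0.23 (95% interval -0.30 to -0.16, limma adjusted p = 0.00332). The difference was -0.22 without DTA replicate 3 (limma adjusted p = 0.0228). Against empty vector Nrtn had -0.59, -0.57 and -0.49 (mean -0.55, SD 0.056, n = 3; limma adjusted p = 0.00208), the second lowest ratio of the family in that group and 1.47-fold lower. That fall was also called with each array left out in turn, at -0.53 without replicate 1 (limma adjusted p = 0.0211).

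Gdnf, the founding ligand, stayed near 0. Its ratios were 0.030, 0.030 and -0.014 with FL (mean 0.015, 95% interval -0.043 to 0.074) and -0.071, 0.0037 and -0.057 with DTA (mean -0.042, interval -0.10 to 0.017), and neither passed limma's test (adjusted p = 0.584 and 0.161). Against empty vector Gdnf had -0.16, -0.051 and -0.080, all below 0 (mean -0.096, SD 0.055, n = 3; limma adjusted p = 0.0498). This call sat at the threshold and was lost in 6 of 9 alternatives.

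Pspn, the gene of persephin, was slightly lower with FL than in untransfected cells, with ratios of -0.031, -0.16 and -0.15 (mean -0.12, SD 0.073, n = 3; limma adjusted p = 0.0300). The call was lost without FL replicate 2 or 3 (limma adjusted p = 0.133 and 0.112). With DTA the ratios of 0.065, -0.0076 and -0.051 lay on both sides of 0 (mean 0.0020, limma adjusted p = 0.969). Against empty vector Pspn had -0.067, -0.076 and -0.12 (mean -0.086, SD 0.026, n = 3; limma adjusted p = 0.0216). That call was lost with any 1 array left out, which leaves 1 residual degree of freedom. The means were then -0.096, -0.092 and -0.072 without replicates 1, 2 and 3.

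Gfra3, the co-receptor gene of artemin, was the member that FL and DTA moved apart most. With DTA its ratios were 0.21, 0.20 and 0.21, all above 0 (mean 0.20, SD 0.0056, n = 3; limma adjusted p = 0.000914). With FL they were -0.0070, -0.11 and -0.12 (mean -0.078, SD 0.062, n = 3; limma adjusted p = 0.0440), a call lost without FL replicate 2 or 3 (0.169 and 0.148). The groups did not overlap, and the difference of FL minus DTA was -0.28 (95% interval -0.38 to -0.19, limma adjusted p = 0.00391). Without DTA replicate 3 it was -0.28 as well (limma adjusted p = 0.0233), and the DTA mean was 0.20 (0.00883). Against empty vector the ratios of -0.048, -0.074 and -0.00033 gave a mean of -0.041 (95% interval -0.10 to 0.022), which did not pass (limma adjusted p = 0.176).

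Gfra2, the co-receptor gene of neurturin, fell with both constructs against untransfected cells. Its ratios were -0.49, -0.50 and -0.48 with FL (mean -0.49, SD 0.013, n = 3; limma adjusted p = 1.22e-05) and -0.43, -0.42 and -0.45 with DTA (mean -0.43, SD 0.016, n = 3; limma adjusted p = 1.22e-05). FL values all lay below DTA values, but the difference of -0.053 did not pass (95% interval -0.12 to 0.012, limma adjusted p = 0.177). Against empty vector the ratios were 0.038, 0.13 and 0.12, all above 0 (mean 0.095, SD 0.050, n = 3; limma adjusted p = 0.0433), and that call was lost without replicate 2 or 3 (0.166 and 0.151). Without DTA replicate 3 the DTA mean was -0.43 and still called (limma adjusted p = 0.000368). Ratios from the 2 kinds of control come from platforms normalized separately, so their difference was not tested.

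Gfra1, the co-receptor gene of GDNF, had small negative ratios. With FL they were -0.064, -0.083 and -0.065 (mean -0.070, 95% interval -0.16 to 0.016, limma adjusted p = 0.121), and with DTA -0.029, -0.12 and -0.21 (mean -0.12, SD 0.090, n = 3; limma adjusted p = 0.0244). The DTA call was lost without DTA replicate 2 or 3 (0.0881 and 0.115). Against empty vector the mean was -0.092 (SD 0.026, n = 3; limma adjusted p = 0.0183), a call that was lost with any 1 array left out. The 2 features of the gene there disagreed, at -0.17 and -0.0096, although both are annotated to the same transcript.

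Gfra4, the co-receptor gene of persephin, was lower with FL than in untransfected cells, with ratios of -0.22, -0.16 and -0.10 (mean -0.16, SD 0.060, n = 3; limma adjusted p = 0.00283). With DTA the mean was -0.062 (95% interval -0.13 to 0.0058, limma adjusted p = 0.0868). The arrays of the 2 constructs did not overlap, and the difference of -0.099 did not pass (95% interval -0.20 to -0.0022, limma adjusted p = 0.105). Without FL replicate 3 it was -0.13 and passed (0.0432). Against empty vector its 3 features had means of -0.22, 0.070 and -0.061, and 1 of them reached 0.35 on replicate 2. The mean over features was -0.071 (SD 0.11, n = 3) and did not pass (limma adjusted p = 0.284). The feature at -0.22, tested alone, did (limma adjusted p = 0.00352). It was picked because its ratios were the largest in size, so that p-value is no independent support.

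**Figure D2:**
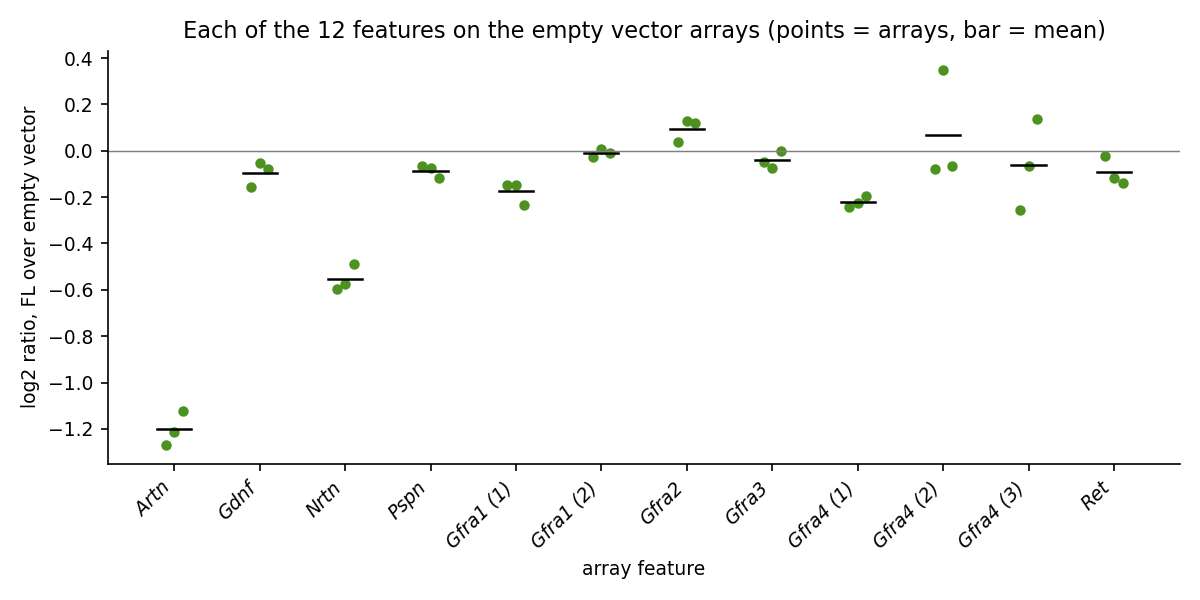
Log2 ratio of FL over empty vector for each of the 12 features of the family on that platform, with 1 point per array and a bar at the mean of 3 arrays. The 2 Gfra1 features (means -0.17 and -0.0096) and the 3 Gfra4 features (-0.22, 0.070 and -0.061) differ among themselves, while Artn and Nrtn each have 1 feature.

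Ret, the signalling receptor of the family, fell modestly against untransfected cells. Its ratios were -0.29, -0.13 and -0.31 with FL (mean -0.24, SD 0.099, n = 3; limma adjusted p = 0.00237) and -0.17, -0.20 and -0.25 with DTA (mean -0.20, SD 0.038, n = 3; limma adjusted p = 0.00463). The DTA mean was -0.18 without DTA replicate 3 and still called (limma adjusted p = 0.0320). The groups overlapped, and the difference of -0.038 did not pass (95% interval -0.18 to 0.10, limma adjusted p = 0.643). Against empty vector the ratios of -0.024, -0.12 and -0.14 were all below 0 (mean -0.093, 95% interval -0.18 to -0.0054), and the test did not pass (limma adjusted p = 0.0639). Without replicate 1 the mean was -0.13 and passed (0.0363).

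Set directly against each other, FL and DTA differed in 2 of the 8 members, Nrtn and Gfra3, both lower with FL, where 16.1% of all genes were lower and 18.2% higher (34.2% called). Both calls were made in all 14 alternatives of that comparison. Neither difference reached 1.5-fold, a size that 2.07% of all genes reached with a call. The interval of Gfra1, whose difference was 0.048, ran from -0.075 to 0.17, that of Gdnf (0.057) from -0.026 to 0.14 and that of Pspn (-0.12) from -0.24 to 0.0087. How much of each construct the cells made was not measured here. Both groups share the kind of control, so if the control RNA was the same, their ratios against it are not independent.

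**Figure D3:**
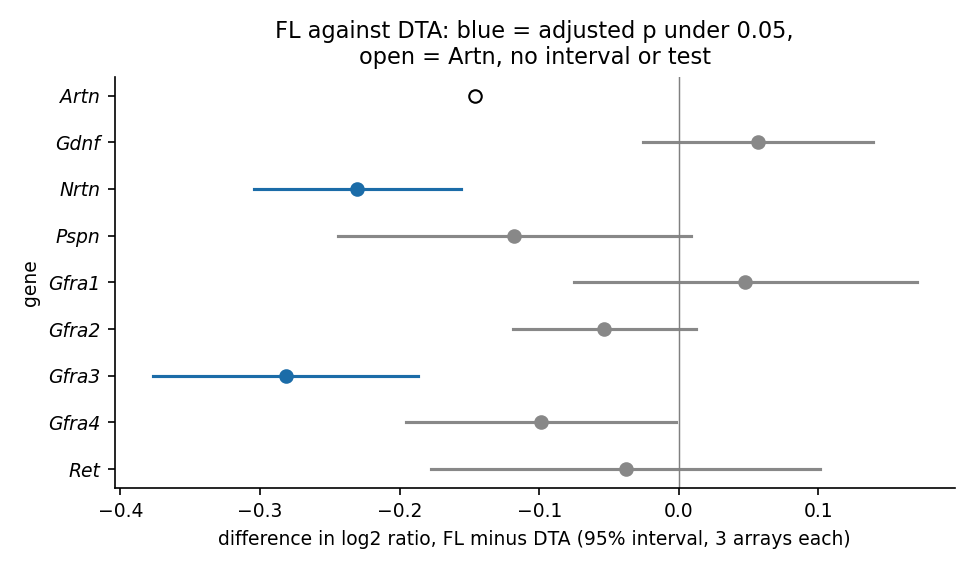
Difference in log2 ratio of FL minus DTA for each gene, with the 95% interval from the limma fit (3 arrays each). Nrtn (-0.23) and Gfra3 (-0.28), in blue, are the tested members whose adjusted p was under 0.05, and Artn (open circle) is shown without interval or test.

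The order of the family within each group was as follows. With FL against untransfected cells, Artn (-1.53) came lowest, then Gfra2 (-0.49), Ret (-0.24) and Nrtn (-0.21), with Gdnf (0.015) highest. With DTA it was Artn (-1.39), Gfra2 (-0.43) and Ret (-0.20), with Gfra3 (0.20) highest. Against empty vector it was Artn (-1.20) and Nrtn (-0.55), and the other 7 lay between -0.096 (Gdnf) and 0.095 (Gfra2). With FL the arrays of Ret and Nrtn overlapped. Against empty vector Gfra2 lay above the other 6 on every array, and each of those 6 overlapped its neighbour in the order. With FL 5.82% of genes had a lower ratio than Gfra2, and against empty vector 2.10% had a lower ratio than Nrtn.

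**Figure D4:**
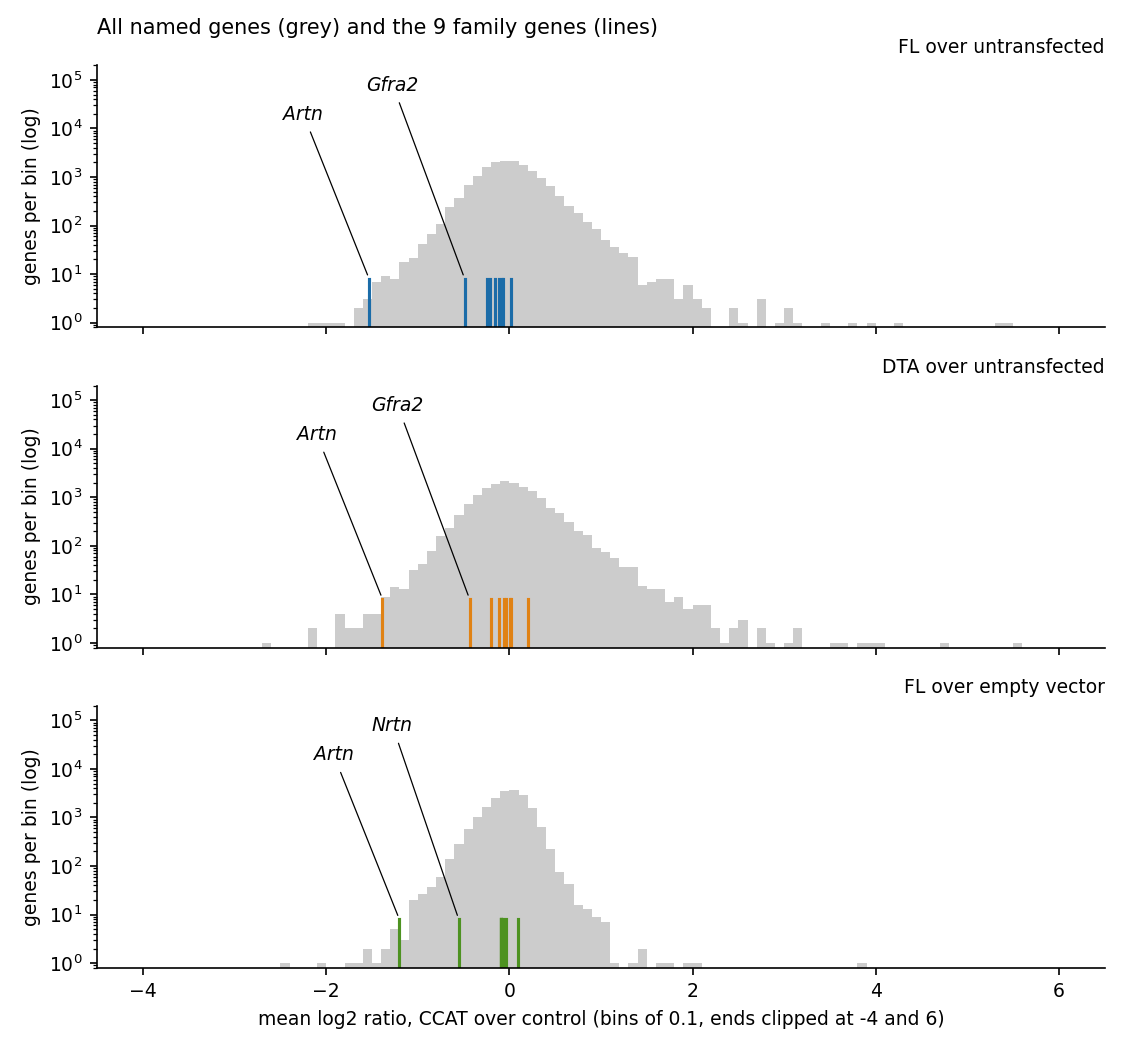
Mean log2 ratio (horizontal axis, bins of 0.1) of all named genes in grey, counted on a log axis, with the 9 family genes as coloured lines, for each group. Artn lies in the left tail of all 3 panels (-1.53, -1.39 and -1.20), and the other members lie nearer to 0. Nrtn against empty vector (-0.55, with 2.10% of genes lower) is the next lowest.

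Other genes of the pathway were read from 4 lists. Their counts stand against all named genes, of which 34.7% rose and 35.1% fell with FL, 35.7% and 36.1% with DTA, and 30.6% and 32.8% against empty vector. Of 31 measured adaptors and kinases that carry the RET signal, 7 rose and 15 fell with FL, 11 rose and 16 fell with DTA, and 10 rose and 12 fell against empty vector. Most were called, as were most of all genes (69.8%, 71.8% and 63.4%), and whether the list differs from all genes was not tested. The medians of its genes were -0.092, -0.080 and -0.051. The median size of their ratios was 0.27, 0.28 and 0.15, against 0.20, 0.22 and 0.14 over all genes. Pik3r1, the regulatory subunit of PI3 kinase, rose by 1.06 with FL (SD 0.17, n = 3; limma adjusted p = 5.17e-05) and 0.81 with DTA (SD 0.070), and by 0.25 against empty vector. Gab1, a docking protein, rose by 0.81 with FL (SD 0.048, n = 3; limma adjusted p = 0.00337) and 0.82 with DTA (SD 0.42). Its ratio against empty vector was -0.16 (95% interval -0.60 to 0.29). Cblc, a ubiquitin ligase of the CBL family, fell by 0.70 with FL (SD 0.023, n = 3), by 0.58 with DTA and by 0.35 against empty vector. Dok5, an adaptor that binds RET, fell by 0.44 with FL, 0.62 with DTA (SD 0.060) and 0.72 against empty vector (SD 0.087, n = 3; limma adjusted p = 0.00224). Sos2, an activator of RAS, fell by 0.30 with FL and 0.63 with DTA, and rose by 0.20 against empty vector.

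Irs1, an insulin receptor substrate that links receptors to PI3 kinase, went opposite ways with the constructs. It rose by 0.84 with DTA (SD 0.036, n = 3) and fell by 0.30 with FL (SD 0.085, n = 3), a difference of -1.14 (95% interval -1.26 to -1.01, limma adjusted p = 0.00042). Against empty vector it fell by 0.28. In the FL and DTA comparison 7 of the 31 adaptors and kinases were higher with FL and 5 lower, where 18.2% and 16.1% of all genes were.

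Of 10 measured transcription factors upstream of Ret or of its lineage, 2 rose and 4 fell with FL, 4 rose and 3 fell with DTA, and 4 rose and 2 fell against empty vector. Of all genes 69.8%, 71.8% and 63.4% were called in these groups, so these counts are not a result about the factors. Tlx2, a homeobox factor of the peripheral nervous system, rose by 0.66 with DTA (SD 0.034, n = 3) and fell by 0.38 with FL (SD 0.11, n = 3). Its difference was -1.04 (95% interval -1.19 to -0.90, limma adjusted p = 0.000553), and it fell by 0.48 against empty vector. Phox2a, a factor of sympathetic neurons, rose by 0.068 with FL, 0.069 with DTA and 0.17 against empty vector (limma adjusted p = 0.0473, 0.0441 and 0.00458). Of the same list, Insm1 fell by 0.26, 0.41 and 0.13 in that order. Hand2 fell by 0.21 and 0.14 against untransfected cells and rose by 0.31 against empty vector. Of 6 measured genes of other binding and sorting proteins, 1 rose and 2 fell with FL, 2 rose and 1 fell with DTA and 2 rose and 3 fell against empty vector. Ncam1, the adhesion molecule that can bind GDNF with its co-receptor, fell by 0.18 with FL and rose by 0.088 with DTA (limma adjusted p = 0.0426 for DTA). Its difference of -0.26 passed (limma adjusted p = 0.00726), and it fell by 0.098 against empty vector (limma adjusted p = 0.00906).

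Genes known to respond to RET were called in both directions, as were all genes (69.8% called with FL, 71.8% with DTA and 63.4% against empty vector). With FL 5 of 13 measured rose and 4 fell, with DTA 5 rose and 2 fell, and against empty vector 4 of 14 rose and 4 fell. Egr1, an immediate early transcription factor, rose by 0.86 with FL (SD 0.065, n = 3), by 0.47 with DTA and by 0.67 against empty vector (SD 0.013, n = 3; limma adjusted p = 0.00208). Dusp6, a phosphatase that restrains ERK, fell by 0.61 with FL and 0.90 with DTA (SD 0.023), and rose by 0.077 against empty vector. Fos rose by 0.69 with DTA (SD 0.037, n = 3) and 0.35 with FL. Spry4, another feedback inhibitor, rose by 0.59 against empty vector (SD 0.069, n = 3; limma adjusted p = 0.00222), and its ratio with FL against untransfected cells was -0.12 (95% interval -0.43 to 0.19). In the kidney, Etv4 and Etv5 are induced by RET signalling. Here Etv4 fell by 0.21 against empty vector and rose by 0.17 with DTA. Its ratio with FL against untransfected cells was -0.025 (95% interval -0.084 to 0.034). Etv5 fell by 0.11 with each construct against untransfected cells, and its ratio against empty vector was 0.0034 (95% interval -0.080 to 0.087).

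**Figure D5:**
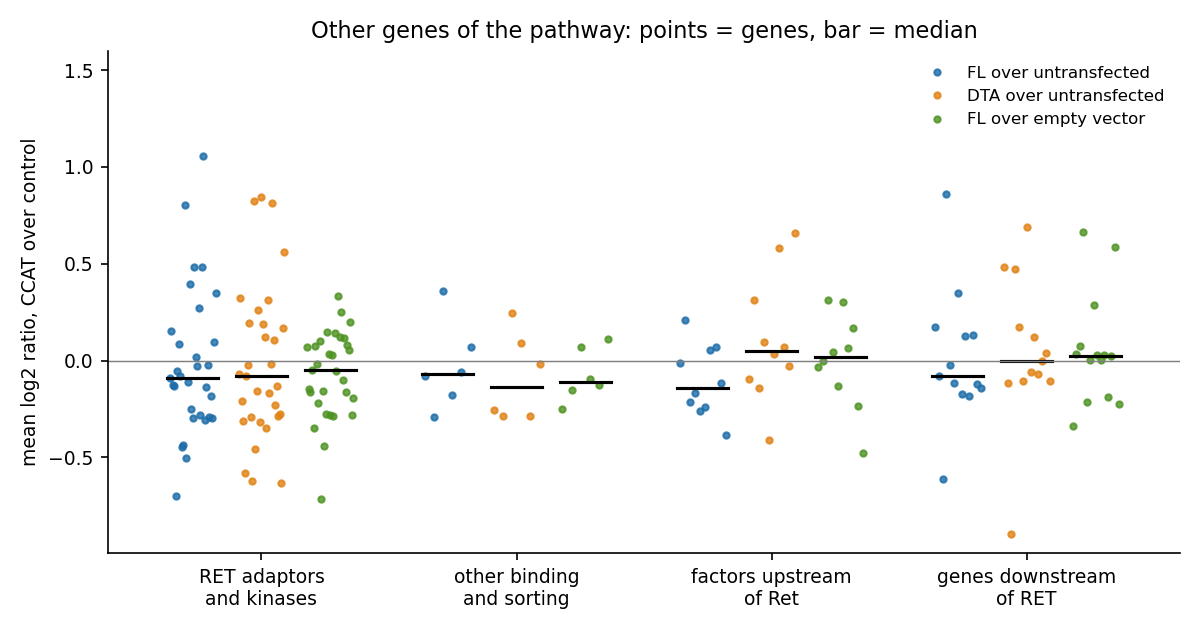
Mean log2 ratio of the measured genes of 4 lists around the family (points are genes, bars medians), for the 3 groups (colours). The medians of the 4 lists lie between -0.14 and 0.051 in the 3 groups, and single genes such as Pik3r1 (1.06 with FL) and Dusp6 (-0.90 with DTA) stand away from them.

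Markers of other cell types were read because Schwann cells and fibroblasts can also make these ligands. Of 5 measured Schwann cell and glial markers 0 rose and 3 fell with FL, and 0 rose and 2 fell with DTA, and of 6 against empty vector 0 rose and 2 fell. Their mean ratios ran from -0.27 to -0.027, from -0.20 to -0.030 and from -0.24 to 0.11. Fibroblast markers rose in 2 and fell in 3 of 7 with FL, rose in 2 and fell in 1 with DTA, and fell in 2 and rose in 0 against empty vector. Immune markers rose in 0 and fell in 3 of 5 with FL, rose in 1 and fell in 3 with DTA and rose in 0 and fell in 1 against empty vector. Of 8 sympathetic neuroblast markers 3 rose and 4 fell with FL, 5 rose and 2 fell with DTA and 2 rose and 3 fell against empty vector. With so few markers a list, and with 34.7% of all genes rising and 35.1% falling with FL, 35.7% and 36.1% with DTA, and 30.6% and 32.8% against empty vector, these counts do not set a list apart.

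Of the markers, 6 were called and at least 1.5-fold changed in some comparison. Mycn, a MYC family transcription factor gene of neuroblastoma, rose by 1.31 with DTA (SD 0.0031, n = 3) and fell by 0.17 with FL (SD 0.056, n = 3). Its difference of FL minus DTA was -1.48 (95% interval -1.57 to -1.39, limma adjusted p = 0.000185), and its ratio against empty vector was 0.0039 (95% interval -0.097 to 0.11). Isl1, a homeobox factor of sympathetic neurons, rose by 0.63 with DTA and fell by 0.062 against empty vector, and its ratio with FL was 0.086 (95% interval -0.026 to 0.20). Th, the rate-limiting enzyme of catecholamine synthesis, went the other way from both with DTA and fell by 0.47 with FL, 0.59 with DTA and 0.41 against empty vector. The fibroblast marker Pdgfrb, a growth factor receptor gene, rose by 0.66 with FL and 0.40 with DTA, and its ratio against empty vector was 0.012 (95% interval -0.030 to 0.055). The immune marker Cd14 fell by 0.64 with FL, 0.62 with DTA and 0.48 against empty vector. Lyz2, a lysozyme gene of myeloid cells, fell by 0.35 with FL and 0.63 with DTA, and its ratio against empty vector was 0.052 (95% interval -0.13 to 0.23). The part of these markers in the ratios of the family was not tested.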

How the data were processed

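The values the authors deposited are log10 ratios of both channels of two-colour Agilent arrays, processed in Rosetta Luminator according to the design text in the labels. Which ratio order, dye normalization and background correction they used is not given in the sources used here. Base 10 was inferred: the lowest deposited log10 value is exactly -2 on all 3 arrays of FL against untransfected cells, as for a cap. For this work the ratios were turned into log2 and averaged over the features of a gene, keeping features with 1 symbol (18218 of 22393 and 32042 of 43790). A comparison with the RefSeq gene table (GRCm38.p6) changed no symbol.

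limma 3.58.1 (lmFit, eBayes; R 4.3.3) tested every gene, with Benjamini-Hochberg adjustment over all named genes of a platform. FL and DTA arrays against untransfected cells were fitted together (4 residual degrees of freedom), the empty-vector arrays separately (2). The steps were also run on simulated data with independent normal noise and few changed genes. That setting differs from these arrays, where most genes were called in each group. Of 90 member values, 0 were exactly 0 and 0 lay within 0.00025 (log10) of the value where an array's ratios pile up. Intensities and flags were not used here. Members, lists, alternatives and the rule for named genes (all members, up to 4 called genes a pathway list and comparison with the smallest p and at least 1.5-fold, and the 5 genes nearest to Artn) were chosen with earlier results of these data known. Phox2a, Insm1, Hand2, Ncam1, Etv4 and Etv5 were added after their values were seen, as was the use of the same rule for the marker lists. Replicate numbers were not taken to pair arrays (deviations of same-numbered FL and DTA arrays correlated at -0.043, 0.091 and -0.0025). Figures were drawn with matplotlib 3.10.9.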

Additional observations from a re-analysis of the deposited data

Results flagged for a closer look

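For 2 of the 8 tested members the effects of FL and DTA against untransfected cells differed by the test of the difference itself. Of all genes 34.2% did, so the count does not set the family apart. Gfra3 differed by -0.28 on the log2 scale (limma adjusted p = 0.00391), with all 3 DTA arrays above 0 and all 3 FL arrays below. Nrtn differed by -0.23 (limma adjusted p = 0.00332), with all 3 FL arrays near -0.21 and DTA arrays on both sides of 0. Groups of 3 arrays were too small for a search for single outlying arrays.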

How the results depend on the processing

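Settings tried were a replicate block, each array left out, each group alone in the fit, robust moderation, quantile or median scaling of arrays, the median or a single feature per gene, zeros dropped, genes never beyond 0.2 dropped, and a 1.5-fold mark. The single feature of a gene was that with the largest mean size of ratio over the arrays of its platform. Artn moved by less than 1 SD between arrays in all of these settings, a mark that few of them could have exceeded. Leaving out 1 array of a group cannot shift a mean that far. For a gene with 1 feature and no zeros, only the scaling of arrays could otherwise change the value. Its ranges over left-out arrays were -1.58 to -1.47 (FL), -1.41 to -1.34 (DTA), -0.20 to -0.085 (their difference) and -1.24 to -1.17 (empty vector). With the 1.5-fold mark, members other than Artn called fell to 0 from 6 (FL), 4 (DTA), 2 (FL minus DTA) and 5 (empty vector), and the pathway genes called fell to 5 from 40, 8 from 44, 2 from 23 and 3 from 41. Against empty vector, dropping genes never beyond 0.2 left 1 member (Nrtn) and 24 pathway genes called, since it removed the other 7 members before the test. With an array left out there, 1 to 3 members were called, with 1 residual degree of freedom and so less power. Nrtn was among them each time. Of 371 alternative values of the tested members, 342 kept direction and side of the threshold, 24 lost a call, 4 gained 1, and 1 changed sign: Pspn with DTA, uncalled throughout, which ranged from -0.029 to 0.029 over left-out arrays. The replicate block left 5, 4 and 2 members called for FL, DTA and their difference, and 40, 39 and 17 pathway genes. Gfra3 with FL lost its call under it (limma adjusted p = 0.0794), and no other member's call changed. The cause of these changes was otherwise not tested.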
